A study of Mus musculus with 6 samples.

Results

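The 10 genes described here encode the enzymes that release arachidonic acid and turn it into leukotrienes and prostaglandins: Pla2g4a, Alox5, Alox5ap, Lta4h, Ltc4s, Ptgs1, Ptgs2, Ptges, Tbxas1 and Hpgds. They were chosen by name as members of this synthesis pathway, with earlier results of these data known, and were 10 of the 55421 genes counted. All 10 passed the filter on low counts and were among the 13849 genes tested. Cytosolic phospholipase A2 frees arachidonic acid from membranes. 5-lipoxygenase and its membrane partner FLAP start the leukotriene branch, whose products draw in neutrophils or contract airways and vessels, and the cyclooxygenases start the prostanoid branch, which ends in prostaglandin E2, prostaglandin D2 or thromboxane. Monocytes are classic producers of leukotriene B4, thromboxane and prostaglandin E2, and interleukin-4 (IL-4) is known to raise or lower several lipid-oxidizing enzymes in cultured monocytes and macrophages.

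Bulk RNA sequencing was performed on splenic monocytes of C57BL/6 mice at steady state, with no treatment named. The 3 IL-4Rα-/- mice lacked the alpha chain of the IL-4 receptor, which IL-13 also uses, in every cell of the body, and the 3 IL-4Rα+/+ mice carried the intact gene, with 1 library per mouse. The deletion is therefore not particular to monocytes. The labels give neither age nor sex, but the paper states an age range in weeks for all its animals and used wild-type littermates as controls. Monocytes were obtained by a negative selection kit, which binds and removes other leukocytes, so cells that escape it stay in the sample. Levels are given as CPM, the count of a gene scaled to the total of its library, after TMM normalization, which scales each library so that most genes match, and differences as the log2 fold change of IL-4Rα-/- against IL-4Rα+/+ monocytes, where a value of 1 is a doubling. Which part of Il4ra is deleted is not given in the sources used here, so reads from what remains of the gene are counted.

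Between 26807281 and 29033297 reads per library fell on genes, so that 1 count was at most 0.0373 CPM before TMM scaling. All 15 monocyte markers were detected in the libraries, with summed levels of 20986 to 30289 CPM in IL-4Rα+/+ and 24066 to 30496 CPM in IL-4Rα-/- monocytes. Il4ra was at 137, 128 and 177 CPM in IL-4Rα+/+ replicates 1, 2 and 3 and at 27.9, 79.4 and 31.8 CPM in the IL-4Rα-/- replicates, without overlap between the genotypes. Xist, which is transcribed from the inactive X chromosome, had 15739 counts in IL-4Rα+/+ replicate 1 and 13512 in IL-4Rα-/- replicate 3 but at most 103 in the other 4 libraries, in which alone the Y-linked genes Ddx3y, Eif2s3y, Kdm5d and Uty were high. By these genes, each genotype held 1 library from a female mouse and the rest from males. In bulk RNA, fewer cells of a type and less RNA per cell cannot be told apart.

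No difference between the genotypes was detected for any of the 10 synthesis genes. With edgeR's quasi-likelihood test and Benjamini-Hochberg adjustment over all genes, 0 of the 10 passed the threshold of 0.15, beside 0% of all 13849 genes. Il4ra, the deleted gene, did not pass either (log2 fold change -1.67 ± 0.41 SE, edgeR, unadjusted p = 0.00529, adjusted p = 0.618). A real difference could thus be missed by this test. At an unadjusted p under 0.05 there were 0 of the 10, beside 8.09% of all genes, and the 3 mice of one genotype lay apart from the 3 of the other for 0 of the 10, beside 15.5% of all genes. DESeq2, the study's tool, called 0 of the 10 and 0.571% of the genes it tested, and gave 0 of the 10 an unadjusted p under 0.05. It did call Il4ra (DESeq2, adjusted p = 0.0111). The log2 fold changes ran from -0.34 for Alox5 to 0.47 for Ptgs1, with 5 above and 5 below 0 and a median of 0.081, beside a median of 0.0084 over all genes tested. The limit of these data differed much between the genes. The 95% interval of the log2 fold change was -0.36 to 0.28 for Lta4h but -1.48 to 0.80 for Alox5, so that a halving of Alox5 could not be told from no change.

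**Figure D1:**
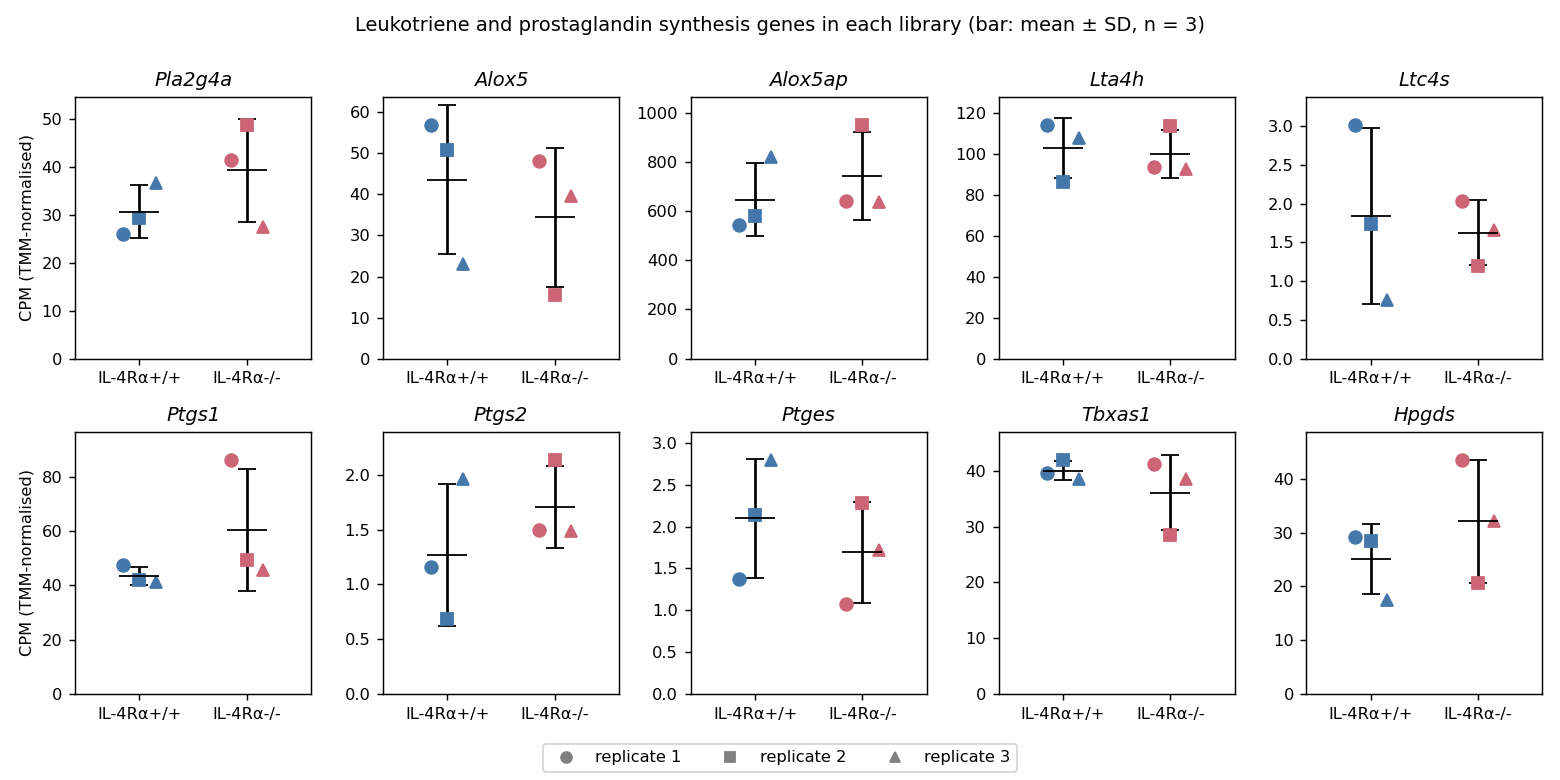
Level of each synthesis gene in CPM (vertical axes, each starting at 0) in the 3 IL-4Rα+/+ (blue) and 3 IL-4Rα-/- (red) libraries, with the replicate shown by the symbol and the mean ± SD of each genotype (n = 3) by the black bars. The genotypes overlap for all 10 genes, and mice of the same genotype differ widely for some, as for Alox5, which ran from 15.5 to 48.1 CPM among the IL-4Rα-/- libraries.

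Per kilobase of exon, the FLAP gene Alox5ap stood far above the other genes. Its mean over the 6 libraries was 489.6 CPM per kilobase, with a range of 382 to 670. Lta4h followed at 16.6 CPM per kilobase, then Ptgs1 at 13.4, Alox5 at 9.50, Pla2g4a at 5.47, Hpgds at 4.44 and Tbxas1 at 4.19. In this order the ranges of neighbouring genes overlapped, as with 10.6 to 22.2 for Ptgs1 and 3.78 to 13.9 for Alox5, so neighbours did not differ beyond their spread. Genes further apart did by this measure. The range of Lta4h, 14.1 to 18.7, lay above that of Alox5. Both Lta4h and Ptgs1 lay above Pla2g4a at 4.05 to 7.63, Hpgds and Tbxas1. Ltc4s was lower, at 1.71 CPM per kilobase, and its range of 0.745 to 2.98 lay below that of Tbxas1, at 3.13 to 4.61. Ptges at 0.482 and Ptgs2 at 0.325 CPM per kilobase were the lowest, with ranges that overlapped each other and lay below that of Ltc4s. Part of this order rests on the exon lengths used, such as 9.09 kb for Tbxas1 and 3.88 kb for Ptgs1. The lengths of the transcripts present were not tested. In CPM without this division, the range of Ptgs1 overlapped those of Pla2g4a, Hpgds and Tbxas1. That of Ltc4s overlapped those of Ptges and Ptgs2. Alox5ap still lay above every other gene, and Lta4h above Alox5, Pla2g4a, Hpgds and Tbxas1. In these monocytes the leukotriene branch was represented by abundant Alox5ap mRNA with much less Alox5 mRNA, and the prostanoid branch by Ptgs1 rather than Ptgs2 mRNA.

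**Figure D2:**
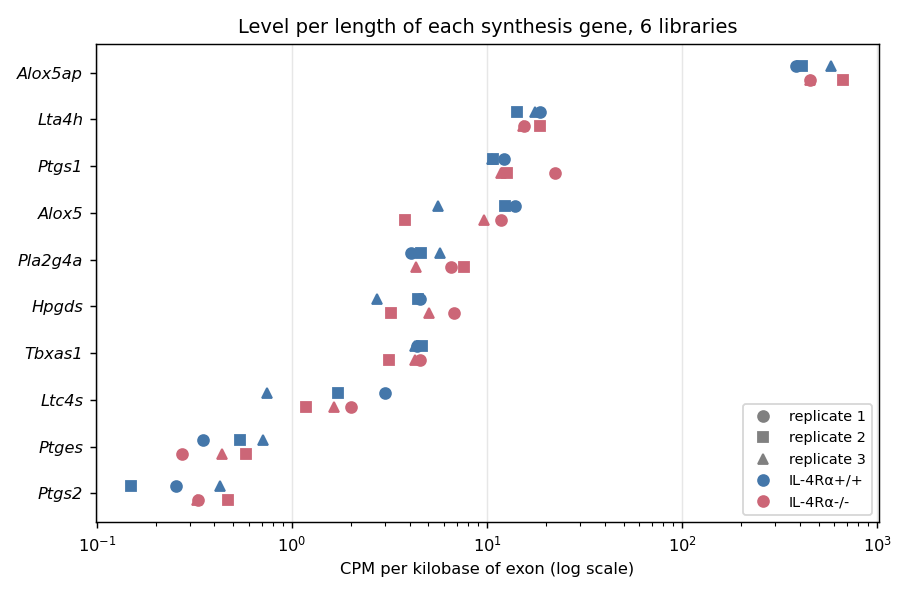
Level of each synthesis gene in CPM per kilobase of exon (horizontal log axis), 1 point per library, with blue for IL-4Rα+/+, red for IL-4Rα-/- and the symbol giving the replicate. Alox5ap lies between 382 and 670, above every other gene, and Ptges and Ptgs2 lie at or below 0.711 in each library.

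The release of arachidonic acid begins with Pla2g4a (chr1:149829618-149961290, minus strand, GRCm38), which encodes cytosolic phospholipase A2 alpha. Its levels were 25.9, 29.4 and 36.7 CPM in IL-4Rα+/+ replicates 1, 2 and 3 and 41.4, 48.8 and 27.5 CPM in IL-4Rα-/- replicates 1, 2 and 3. A pair of the IL-4Rα-/- libraries lay above all IL-4Rα+/+ libraries and the remaining one lay among them. The log2 fold change was 0.36 ± 0.23 (SE), with an adjusted p of 0.663 in edgeR's quasi-likelihood test. It was 0.56 without that lower library, IL-4Rα-/- replicate 3 (edgeR, unadjusted p = 0.0196, adjusted p = 0.672), and 0.17 without the highest one, IL-4Rα-/- replicate 2.

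In the leukotriene branch, Alox5 (chr6:116410077-116461178, minus strand) encodes 5-lipoxygenase, which makes the unstable epoxide leukotriene A4. Alox5 was at 57.0, 50.8 and 23.03 CPM in the IL-4Rα+/+ and at 48.1, 15.5 and 39.7 CPM in the IL-4Rα-/- libraries, in the order of replicates 1, 2 and 3. Each genotype held 1 library with a low level, IL-4Rα+/+ replicate 3 and IL-4Rα-/- replicate 2, and the highest library had 3.68 times the level of the lowest. Between the genotypes the log2 fold change was -0.34 ± 0.48 (SE), with an adjusted p of 0.822 in edgeR's test, and it was 0.0088 without IL-4Rα-/- replicate 2.

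Alox5ap (chr5:149264767-149288153, plus strand) encodes FLAP, which presents arachidonic acid to 5-lipoxygenase at the nuclear membrane. It was at 542, 581 and 818 CPM in IL-4Rα+/+ and at 642, 951 and 638 CPM in IL-4Rα-/- replicates 1, 2 and 3. The libraries that were lowest for Alox5 were thus the highest for Alox5ap. Per kilobase, Alox5ap exceeded Alox5 by 103 times in IL-4Rα+/+ replicate 3 and by 177 times in IL-4Rα-/- replicate 2, against 27.5 to 46.5 times in the other 4 libraries. The log2 fold change of Alox5ap between the genotypes was 0.20 ± 0.22 (SE, edgeR, adjusted p = 0.778) and changed to -0.015 without IL-4Rα-/- replicate 2.

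Lta4h (chr10:93453411-93484875, plus strand) encodes leukotriene A4 hydrolase, which forms the neutrophil attractant leukotriene B4. It was the steadiest of the 10 genes, at 114, 86.3 and 108 CPM in IL-4Rα+/+ and 93.8, 114 and 92.8 CPM in IL-4Rα-/- replicates 1, 2 and 3. Its log2 fold change was -0.039 ± 0.13 (SE, edgeR, adjusted p = 0.933), and its highest level was 1.32 times its lowest.

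Ltc4s (chr11:50236461-50238616, minus strand) encodes leukotriene C4 synthase, the entry to the cysteinyl leukotrienes made by mast cells, basophils and eosinophils. It was low, at 3.02, 1.74 and 0.755 CPM in IL-4Rα+/+ and 2.03, 1.19 and 1.66 CPM in IL-4Rα-/- replicates 1, 2 and 3. The IL-4Rα+/+ libraries covered the whole range, so the IL-4Rα-/- libraries lay inside it. The log2 fold change was -0.18 ± 0.50 (SE, edgeR, adjusted p = 0.917). The basophil and mast cell markers, 10 of 12 of which were seen above 3 counts with Mcpt4 and Tpsb2 at 0, summed to 20.6 to 31.7 CPM in IL-4Rα+/+ and 42.9 to 76.6 CPM in IL-4Rα-/- libraries, and the 8 eosinophil markers to 73.8 to 75.4 and 105 to 163 CPM. Ccr3 led the eosinophil sum, at 52.7, 67.1 and 66.9 CPM in IL-4Rα+/+ and 137, 89.7 and 73.4 CPM in IL-4Rα-/- replicates 1, 2 and 3. Without Ccr3 the sums of the genotypes overlapped. Of the 8 eosinophil markers, 7 had a higher mean in IL-4Rα-/- libraries, and Siglecf a lower one. The highest level of Ltc4s was in an IL-4Rα+/+ library, and the part of basophils, mast cells and eosinophils in it was not tested.

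At the entry to the prostanoid branch, Ptgs1 (chr2:36230426-36252272, plus strand) encodes cyclooxygenase-1, the form that cells keep at a steady level. Ptgs1 was at 47.3, 41.8 and 41.1 CPM in IL-4Rα+/+ and at 86.1, 49.2 and 45.7 CPM in IL-4Rα-/- replicates 1, 2 and 3. The IL-4Rα+/+ mice were close together and 1 IL-4Rα-/- mouse stood well above all others. Ptgs1 had the smallest p of the 10 genes, with a log2 fold change of 0.47 ± 0.24 (SE, 95% interval -0.11 to 1.06, edgeR, unadjusted p = 0.0941, adjusted p = 0.633). Without IL-4Rα-/- replicate 1 the log2 fold change fell to 0.12. That library also had the highest sum of the red pulp macrophage markers, at 6832 CPM against 4647 and 4292 CPM in the other IL-4Rα-/- and 3170 to 3776 CPM in the IL-4Rα+/+ libraries. All 10 markers of this list were detected and each had a higher mean in IL-4Rα-/- libraries, and their part in the level of Ptgs1 was not tested.

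Ptgs2 (chr1:150100031-150108227, plus strand) encodes cyclooxygenase-2, which inflammatory signals induce. It was low, at 1.16, 0.687 and 1.96 CPM in IL-4Rα+/+ and 1.50, 2.14 and 1.49 CPM in IL-4Rα-/- replicates 1, 2 and 3. The levels overlapped, and IL-4Rα-/- replicate 2 and IL-4Rα+/+ replicate 3 were highest, the same libraries that were highest for Alox5ap. Its log2 fold change was 0.43 ± 0.42 (SE, edgeR, adjusted p = 0.760). Per kilobase, Ptgs1 exceeded Ptgs2 by 24.7 to 71.7 times in IL-4Rα+/+ and by 27.1 to 67.7 times in IL-4Rα-/- libraries.

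The cyclooxygenase product is shared out by terminal synthases. Ptges (chr2:30889471-30929863, minus strand) encodes the inducible prostaglandin E synthase, mPGES-1. It was at 1.37, 2.13 and 2.79 CPM in IL-4Rα+/+ and 1.07, 2.28 and 1.72 CPM in IL-4Rα-/- replicates 1, 2 and 3. The genotypes overlapped at these low levels, with a log2 fold change of -0.31 ± 0.39 (SE, edgeR, adjusted p = 0.804). Ptges3, the gene of the cytosolic prostaglandin E synthase p23, which is also a chaperone partner, exceeded Ptges per kilobase by 41.6 to 94.2 times in IL-4Rα+/+ and by 58.0 to 126 times in IL-4Rα-/- libraries.

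Tbxas1 (chr6:38875404-39084585, plus strand) encodes thromboxane A synthase. Its levels were 39.7, 42.0 and 38.7 CPM in IL-4Rα+/+ and 41.2, 28.4 and 38.6 CPM in IL-4Rα-/- replicates 1, 2 and 3. Only IL-4Rα-/- replicate 2 stood apart, below the other 5 libraries. The log2 fold change was -0.15 ± 0.14 (SE, edgeR, adjusted p = 0.749) and -0.0073 without that library. Thromboxane synthase and cyclooxygenase-1 are also abundant in platelets. The 12 megakaryocyte and platelet markers summed to 35.1 to 85.4 CPM in IL-4Rα+/+ and 28.7 to 66.2 CPM in IL-4Rα-/- libraries, but Itgb3 led the sum at up to 65.5 CPM. Without Itgb3 the sums were 12.7 to 19.9 CPM and 15.4 to 27.5 CPM, mostly from Clec1b. Of the 12 markers, 3 were at or under 3 counts in every library, with Gp1bb at 0, and Pf4 was at most 1.46 CPM.

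Hpgds (chr6:65117293-65144908, minus strand) encodes the hematopoietic prostaglandin D synthase. Hpgds was at 29.1, 28.4 and 17.5 CPM in IL-4Rα+/+ and 43.5, 20.6 and 32.2 CPM in IL-4Rα-/- replicates 1, 2 and 3. A pair of the IL-4Rα-/- libraries were the highest of all, while the lowest library of each genotype was the one that was lowest for Alox5. The log2 fold change was 0.36 ± 0.31 (SE, 95% interval -0.37 to 1.09, edgeR, adjusted p = 0.735), and it was 0.073 without IL-4Rα-/- replicate 1 and 0.60 without IL-4Rα-/- replicate 2. Mast cells and T helper type 2 cells also express this synthase. The highest Hpgds level and the highest sum of basophil and mast cell markers, 76.6 CPM, fell on the same library, IL-4Rα-/- replicate 1. Prss34 led that sum at 32.0 CPM, and Mcpt4 and Tpsb2 were at 0. This library also had the highest sums of red pulp macrophage markers, 6832 CPM, and of eosinophil markers, 163 CPM. The part of any of these cells in Hpgds was not tested.

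IL-4Rα signals through the transcription factor STAT6, which binds palindromes of TTC and GAA with 4 bases of any kind between them, so the promoters of the synthesis genes were searched for these letters as a description of the sequence. RefSeq windows of 250 bases before to 50 bases after the start site were at hand for 9 of the 10 genes, as 10 promoters. The letters occurred in 2 of them, those of Ptges and Tbxas1, beside 6.95% of all 32851 promoters in the table. The shorter form with 3 bases between TTC and GAA, used by other STAT proteins, occurred in 0 of the 10 promoters and in 8.30% of all. Each motif reads the same on both strands. The 250 bases before the start site are printed for these promoters, in lower case with the match in capitals, because they hold the motif in genes for which no difference between the genotypes was detected. Both start sites lie inside the longer gene spans given above (GRCm38.p6).
Ptges, chr2:30903298-30903547, minus strand: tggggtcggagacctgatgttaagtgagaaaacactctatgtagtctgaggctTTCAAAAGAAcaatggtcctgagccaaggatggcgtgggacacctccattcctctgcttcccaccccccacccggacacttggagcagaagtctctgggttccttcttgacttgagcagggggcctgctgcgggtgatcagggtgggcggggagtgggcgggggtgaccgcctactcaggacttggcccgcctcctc
Tbxas1, chr6:38918736-38918985, plus strand: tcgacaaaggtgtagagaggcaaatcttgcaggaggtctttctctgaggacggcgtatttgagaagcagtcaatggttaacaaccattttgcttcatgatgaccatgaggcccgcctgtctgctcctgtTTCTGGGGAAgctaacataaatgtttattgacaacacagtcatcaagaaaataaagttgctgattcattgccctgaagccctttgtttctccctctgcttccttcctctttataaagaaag
The match begins 197 bases before the start site in Ptges and 121 bases before it in Tbxas1. Whether STAT6 binds either site was not measured.

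Several synthesis genes were lowest or highest in the same libraries, 1 of each genotype. From high to low, the order of the 6 libraries for Alox5 was IL-4Rα+/+ replicate 1, IL-4Rα+/+ replicate 2, IL-4Rα-/- replicate 1, IL-4Rα-/- replicate 3, IL-4Rα+/+ replicate 3 and IL-4Rα-/- replicate 2. Ace, Spn and Itgax, which are higher in the Ly6C low, patrolling monocytes, had this same order, and F13a1, a gene of the Ly6C high, classical monocytes, had exactly the reverse. Most markers did not: of the 15 monocyte markers, 2 had the order of Alox5 (Ace and Spn), 2 its reverse (F13a1 and Fcgr1) and 11 another order, among them Nr4a1, Treml4 and Cx3cr1 of Ly6C low and Ly6c2, Ccr2 and Fn1 of Ly6C high monocytes. Of the 7 dendritic cell markers, 2 had the order of Alox5 (Itgax and Zbtb46). The order of Alox5 was shared by 249 of the 13849 genes tested (1.80%) and reversed in 223 (1.61%). These markers were chosen from the monocyte and dendritic cell lists after their values were seen.

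Ace was at 2774, 2123 and 1088 CPM in IL-4Rα+/+ and 1745, 709.97 and 1604 CPM in IL-4Rα-/- replicates 1, 2 and 3, while F13a1 was at 325, 791 and 1853 CPM and at 826, 2123 and 1074 CPM. Ccr2, the receptor by which classical monocytes leave the marrow, was at 380, 1045 and 1668 CPM in IL-4Rα+/+ and 826, 2008 and 979 CPM in IL-4Rα-/- libraries. IL-4Rα+/+ replicate 3 and IL-4Rα-/- replicate 2 were the libraries lowest in Ace and highest in F13a1 and Ccr2. They had the lowest levels of Alox5, Ltc4s and Hpgds and the highest levels of Alox5ap, Ptgs2 and Ptges. Pla2g4a, Lta4h, Ptgs1 and Tbxas1 did not have both of these libraries at one end. The share of all genes with this looser pattern was not counted. The 13 neutrophil markers summed to 64.2 to 278 CPM in IL-4Rα+/+ and 134 to 682 CPM in IL-4Rα-/- libraries and were also highest in these libraries, but Mmp8 led the sum. Without Mmp8 the sum was 377 CPM in IL-4Rα-/- replicate 2 and 188 CPM in IL-4Rα-/- replicate 1, against 107 CPM in IL-4Rα+/+ replicate 3. The 7 dendritic cell markers summed to 403 to 727 CPM in IL-4Rα+/+ and 335 to 542 CPM in IL-4Rα-/- libraries, in the order of Alox5 only through Itgax. Without Itgax they summed to 168 to 246 CPM and 161 to 204 CPM, with another order. Ace itself overlapped between the genotypes (two-sided exact permutation test, p = 0.4). The parts of monocyte subsets, neutrophils and dendritic cells in these levels cannot be told apart here.

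**Figure D3:**
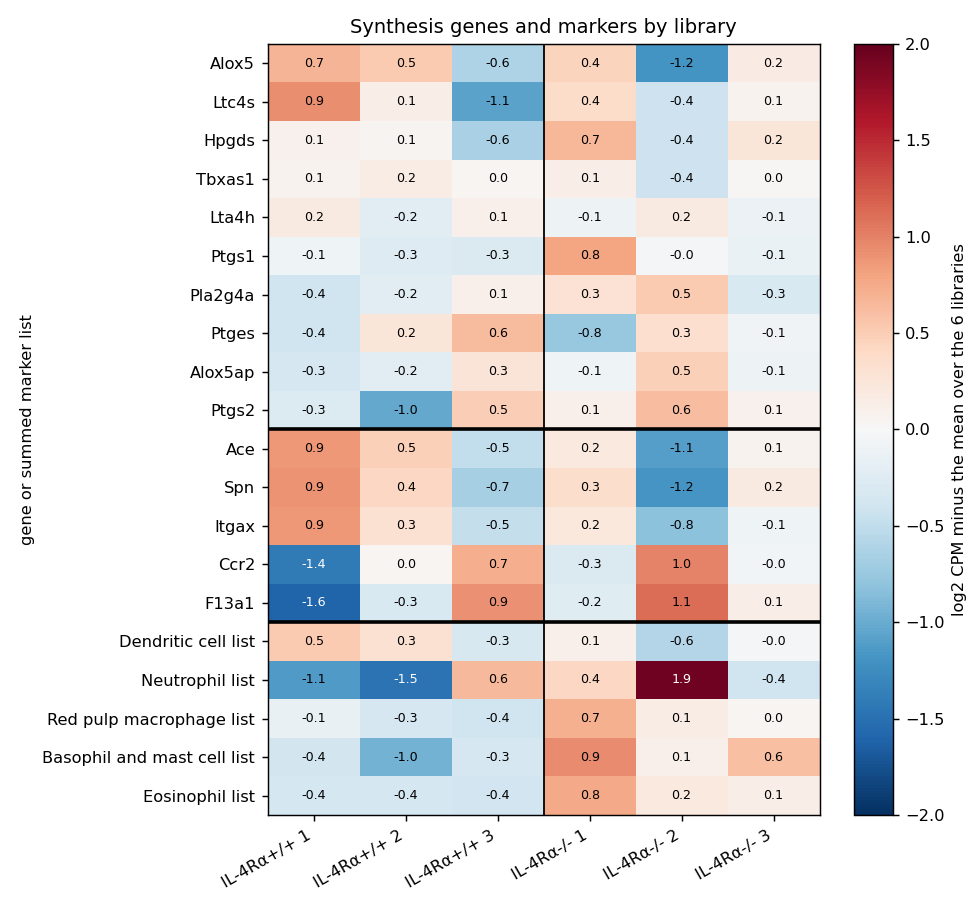
Log2 CPM minus its mean over the 6 libraries (colour scale and printed values) for the 10 synthesis genes (top), 5 genes that differ between monocyte subsets (middle) and 5 summed marker lists (bottom), with the IL-4Rα+/+ libraries to the left of the vertical line. IL-4Rα+/+ replicate 3 and IL-4Rα-/- replicate 2 share low Alox5, Ltc4s, Hpgds, Ace, Spn and Itgax and high Alox5ap, Ptgs2, Ptges, Ccr2 and F13a1.

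**Figure D4:**
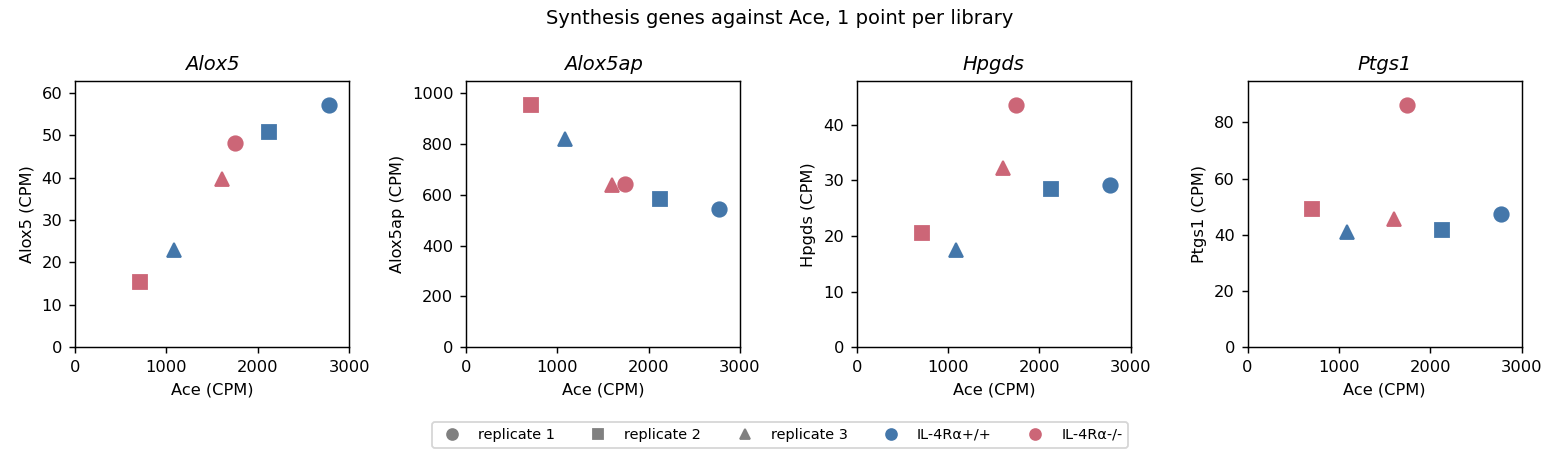
Levels of Alox5, Alox5ap, Hpgds and Ptgs1 (vertical axes, CPM) against that of Ace (horizontal axis, CPM), 1 point per library, with blue for IL-4Rα+/+, red for IL-4Rα-/- and the symbol giving the replicate. From the library with the least Ace to the one with the most, Alox5 ran from 15.5 to 57.0 CPM and Alox5ap from 951 to 542 CPM, and the high Ptgs1 value of 86.1 CPM belonged to 1 library.

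The log2 level of Ace was also added to the edgeR fit as a covariate, a choice made after seeing the data. Because Ace had the order of Alox5 over the 6 libraries, this fit takes up the spread of Alox5. Hpgds was also lowest in the libraries lowest in Ace. The SEs, p-values and places from this fit are therefore a description and no separate test for any gene. The sign of the log2 fold change turned for Alox5 to 0.24, for Alox5ap to -0.057 and for Ltc4s to 0.50. Hpgds then had a log2 fold change of 0.71 ± 0.13 (SE, edgeR, unadjusted p = 0.00119, adjusted p = 0.333), and Ptgs1 one of 0.61 ± 0.24 (SE, unadjusted p = 0.0404, adjusted p = 0.440). Prxl2b, which encodes prostamide/prostaglandin F synthase, had 0.68 ± 0.089 (SE, unadjusted p = 1.9e-04, adjusted p = 0.333). Other genes of the wider pathway, Pla2g2d, Pla2g16, Hpgd and Aloxe3, also had an unadjusted p under 0.05 in this edgeR fit, with log2 fold changes above 0. In this fit 0 of the 13849 genes passed the threshold, Il4ra had the smallest p with a log2 fold change of -2.24, Prxl2b was at place 3 and Hpgds at place 41. At an unadjusted p under 0.05 it held 1507 genes (10.9%), against 1120 (8.09%) without the covariate.

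The wider pathway was followed in a list of 71 genes that includes these 10, of which 51 were tested and 13 had at most 3 counts in every library. Of the 51, 0 passed the threshold of 0.15 in edgeR or in DESeq2, 34 had a log2 fold change above 0 and 17 below, and the median was 0.17. Without the 10 synthesis genes the median over 41 genes was also 0.17, with 29 above 0 and 12 below, beside 7130 above and 6719 below among all genes. At an unadjusted p under 0.05, edgeR held 1 gene of the 51, beside 8.09% of all genes. DESeq2 held 4 of the 71 listed, Pla2g15, Mgst3, Aloxe3 and Alox12, of which Alox12 was not among the 51. Over the 13849 genes tested, DESeq2 held 1110. Of the 51, 3 did not overlap between the genotypes, beside 15.5% of all genes.

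**Figure D5:**
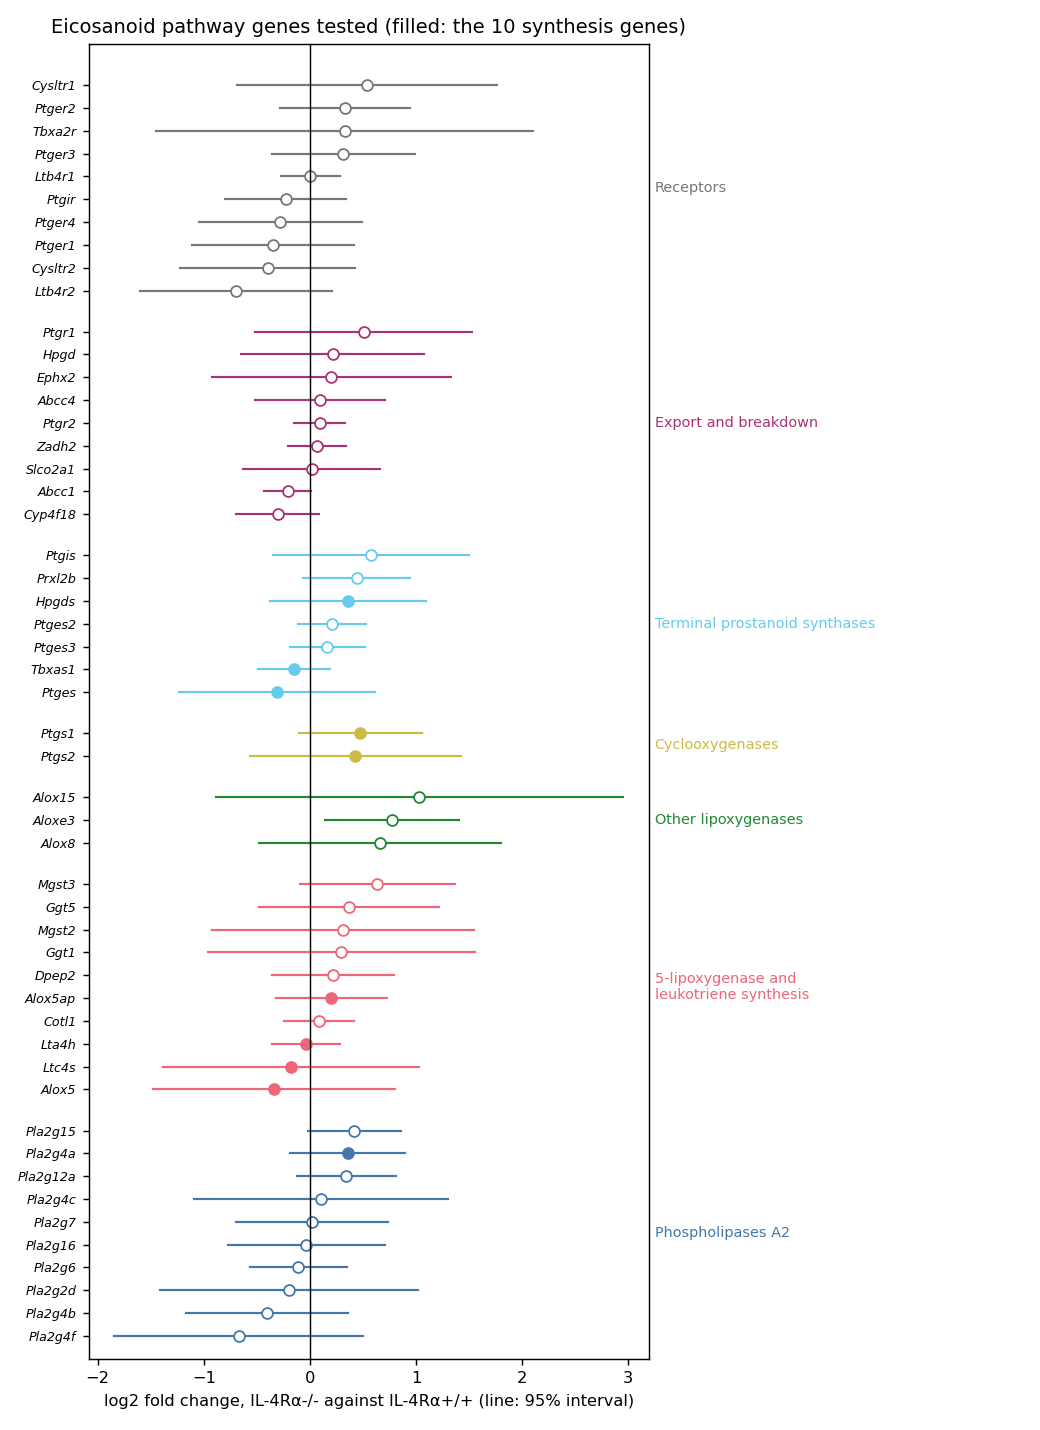
Log2 fold change of IL-4Rα-/- against IL-4Rα+/+ monocytes (horizontal axis) with its 95% interval from edgeR (line) for the 51 pathway genes tested, grouped by role, with filled circles for the 10 synthesis genes. The intervals of the 10 synthesis genes all include 0, and the interval of Aloxe3, at 0.14 to 1.41, does not.

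Among the phospholipases A2, 10 of 21 listed genes were tested, with 5 above and 5 below 0. Pla2g7, which encodes the platelet-activating factor acetylhydrolase, and Pla2g15, which encodes a lysosomal phospholipase, had the highest levels per kilobase. Pla2g15 was at 112, 109 and 128 CPM in IL-4Rα+/+ and 184, 170 and 113 CPM in IL-4Rα-/- replicates 1, 2 and 3. Its log2 fold change was 0.42 ± 0.18 (SE, edgeR, unadjusted p = 0.0585), while Pla2g7 had 0.018 ± 0.30. Pla2g1b, the pancreatic enzyme, had 13 counts in IL-4Rα-/- replicate 2, 3 in IL-4Rα+/+ replicate 1 and none in the others. The pancreatic acinar markers also summed highest in those libraries, at 282 and 31.3 CPM.

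Of the leukotriene synthesis genes other than the 4 above, Cotl1, whose product binds and stabilizes 5-lipoxygenase, had a level of 465 CPM per kilobase, close to that of Alox5ap. Its log2 fold change was 0.087 ± 0.14 (SE). Mgst3, a microsomal glutathione transferase, was at 3.58, 4.96 and 7.21 CPM in IL-4Rα+/+ and 7.14, 10.5 and 6.80 CPM in IL-4Rα-/- libraries, with a log2 fold change of 0.63 ± 0.30 (SE, edgeR, unadjusted p = 0.0780). The genotypes overlapped for both.

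The 3 other lipoxygenase genes tested all had log2 fold changes above 0. Alox15, a classic IL-4-induced gene of human monocytes and mouse macrophages, was at 1.69, 9.41 and 1.66 CPM in IL-4Rα+/+ and at 14.4, 8.16 and 3.62 CPM in IL-4Rα-/- replicates 1, 2 and 3. No fall without the receptor was detected, with a log2 fold change of 1.03 ± 0.80 (SE, 95% interval -0.89 to 2.96, edgeR, adjusted p = 0.717). Aloxe3, the epidermal lipoxygenase 3, was at 1.41, 1.48 and 1.93 CPM in IL-4Rα+/+ and 3.11, 2.10 and 3.04 CPM in IL-4Rα-/- libraries, without overlap. It had the smallest p of the 51 genes, with a log2 fold change of 0.78 ± 0.26 (SE, edgeR, unadjusted p = 0.0231, adjusted p = 0.618), and did not pass the threshold.

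Among the terminal synthases outside the 10 genes, Prxl2b was at 53.7, 43.5 and 35.2 CPM in IL-4Rα+/+ and 73.0, 46.1 and 60.5 CPM in IL-4Rα-/- libraries, with a log2 fold change of 0.44 ± 0.21 (SE, edgeR, unadjusted p = 0.0765). Ptges3 had 0.17 ± 0.15 (SE). Breakdown was represented by Hpgd, the gene of the prostaglandin-inactivating dehydrogenase 15-PGDH, at 434, 433 and 269 CPM in IL-4Rα+/+ and 628, 236 and 453 CPM in IL-4Rα-/- libraries. Hpgd was lowest in the libraries lowest in Alox5 and Hpgds, and its log2 fold change was 0.21 ± 0.36 (SE).

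Abcc1, the gene of an exporter of leukotriene C4, was at 73.1, 80.1 and 70.1 CPM in IL-4Rα+/+ and 64.3, 58.9 and 69.7 CPM in IL-4Rα-/- replicates 1, 2 and 3. Cyp4f18, whose enzyme hydroxylates leukotriene B4, was at 424, 296 and 278 CPM and at 274, 273 and 262 CPM. In both genes the genotypes did not overlap, by margins smaller than the spread within a genotype. The log2 fold changes were -0.21 ± 0.092 for Abcc1 (SE, edgeR, unadjusted p = 0.0575) and -0.30 ± 0.16 for Cyp4f18 (SE, edgeR, unadjusted p = 0.109). For single genes the two-sided exact permutation test of 3 against 3 mice cannot give a p below 0.10, which is the value these genes and Aloxe3 had.

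Of the 14 receptors listed, 10 were tested, with 5 above and 5 below 0. Ltb4r1, the high-affinity receptor of leukotriene B4, was at 70.0, 72.8 and 76.8 CPM in IL-4Rα+/+ and 62.9, 84.3 and 72.7 CPM in IL-4Rα-/- replicates 1, 2 and 3, with a log2 fold change of 0.0034 ± 0.12 (SE, 95% interval -0.27 to 0.28). Ptger4, which encodes the prostaglandin E2 receptor EP4, had -0.28 ± 0.32, and Ptgir, the prostacyclin receptor gene, had -0.23 ± 0.24. The levels of the 3 receptors overlapped between the genotypes.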

How the data were processed

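The authors isolated RNA from splenic monocytes, prepared poly(A)-selected directional libraries and sequenced them as single-end reads. The authors aligned reads to GRCm38 (Gencode M23) with STAR 2.6.1a, whose reads per gene were deposited as unnormalized counts. The strand setting of the counting is not given in the sources used here. Alox5ap, Ltc4s, Ptgs1, Tbxas1, Hpgds and Pla2g4a have an antisense neighbour, and Ptges and Tbxas1 contain a small gene on the same strand, so reads may be shared. The submitters' notes also name DESeq2 1.22.2, RSEM and bcl2fastq. Lines for unassigned reads, 21.1% to 22.8% of each library, were left out.

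The members and gene lists were chosen with earlier results of these data known. Symbols, positions and exon lengths came from Gencode M21 (GRCm38), in which 55240 of 55421 identifiers were found. Genes were kept by filterByExpr with a minimum count of 10, scaled by TMM and tested by genotype with edgeR 4.0.16 in R 4.3.3 (glmQLFit and glmQLFTest), with Benjamini-Hochberg adjustment and the study's threshold of 0.15. The steps were tested on simulated data with planted changes larger than those of the 10 members, so this does not show that differences of their size would be found. Alternatives changed the scaling, the filter, the test (DESeq2 1.42.0, limma voom 3.58.1), the threshold, the covariate (Xist or, after seeing the data, Ace) and the block, and left out each mouse in turn. Genes named were the 10 members, Il4ra, pathway genes with an unadjusted p under 0.05 or without overlap, the 2 with the highest level per kilobase in each role, and Alox15, Pla2g1b, Ptger4 and Ltb4r1. Prxl2b was among the most abundant, and its covariate values were singled out after they were seen. Nothing states that same-numbered mice are related. The p-values set the difference between the genotypes against the spread among mice of the same genotype, for these 6 mice only. Promoter sequences were taken from RefSeq (GRCm38.p6). Protein sequences were not analysed here.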

Additional observations from a re-analysis of the deposited data

How the results depend on the processing

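No synthesis gene passed the threshold in any of the 15 alternatives run on each, and 139 of the 150 log2 fold changes had the sign of the main test. The 11 that turned belonged to Alox5, Alox5ap, Lta4h and Ltc4s. With 1 mouse left out, the log2 fold change ran from -0.66 to 0.0088 for Alox5, from -0.015 to 0.41 for Alox5ap, from -0.15 to 0.044 for Lta4h and from -0.55 to 0.38 for Ltc4s. With Xist as a covariate Ltc4s was at 0.046, and with Ace as a covariate Alox5 was at 0.24, Alox5ap at -0.057 and Ltc4s at 0.50. The cause was not tested. Over all genes, DESeq2 called 80 where edgeR's quasi-likelihood test called 0 and 1120 had an unadjusted p under 0.05, but none of the 80 was a synthesis or other listed pathway gene. At an unadjusted p under 0.05 there was 1 synthesis gene without the filter on low counts (Ptgs1, beside 5.41% of all genes), and there were 2 without IL-4Rα-/- replicate 3 (Pla2g4a and Ptgs1, beside 6.98%) and 2 with Ace (Hpgds and Ptgs1, beside 10.9%). Deviations from the genotype means correlated at -0.15 between libraries of the same number (0.18, -0.27 and -0.30 for numbers 1, 2 and 3), so the numbers were not taken as pairs. With the replicate block, 0 genes passed, the smallest adjusted p was 0.812, and 765 genes, with 0 of the 10 among them, had an unadjusted p under 0.05. Depth limits Ptgs2, Ptges and Ltc4s, at under 4 CPM in each library.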

Other observations

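Other genes of the pathway also varied widely among mice of the same genotype. Pla2g2d, which encodes a secreted phospholipase A2 of dendritic cells and macrophages, was at 123, 79.1 and 37.5 CPM in IL-4Rα+/+ and 85.1, 33.2 and 91.0 CPM in IL-4Rα-/- replicates 1, 2 and 3. Its lowest libraries were those lowest in Alox5, and its log2 fold change between the genotypes was -0.19 ± 0.51 (SE). Cysltr1, the receptor of the cysteinyl leukotrienes, ran the other way, at 8.96, 15.7 and 21.7 CPM in IL-4Rα+/+ and 12.9, 39.9 and 14.5 CPM in IL-4Rα-/- libraries. Ptgr1, which encodes an enzyme that inactivates leukotriene B4 and prostaglandins, was at 13.9, 14.8 and 33.7 CPM and at 22.3, 44.1 and 22.3 CPM, and was also highest in IL-4Rα+/+ replicate 3 and IL-4Rα-/- replicate 2. The log2 fold changes were 0.54 ± 0.51 for Cysltr1 and 0.51 ± 0.43 for Ptgr1 (SE). The 3 genes were singled out once their values were known, and none passed the threshold in edgeR's quasi-likelihood test.

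Alox12, the platelet-type 12-lipoxygenase gene, was too low to be tested in edgeR. It had 1, 2 and 1 counts in IL-4Rα+/+ and 5, 4 and 17 in IL-4Rα-/- replicates 1, 2 and 3, without overlap. Pla2g5, also too low, ran the other way without overlap, at 16, 7 and 11 counts in IL-4Rα+/+ and 5, 2 and 6 in IL-4Rα-/- libraries. Ptgdr2, the prostaglandin D2 receptor of type 2 lymphocytes, eosinophils and basophils, had at most 9 counts in a library, although Hpgds, which makes its ligand, was at 17.5 CPM or more in all 6.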
